A study of Mus musculus with 16 samples.

Results

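Gene expression in the olfactory bulb was compared between mice with both copies of the chromatin remodeller gene Brg1 floxed and mice with 1 copy floxed. The comparison used the 8 olfactory bulb arrays of a series of 16, 3 from conditional knockout (cKO) mice and 5 from controls. It covered 19938 genes, those with a single symbol in the array's annotation, out of 35556 probe sets. The cKO mice were GlastCreERT2/Brg1fl/fl and the 5 controls were GlastCreERT2/Brg1fl/+, so every animal carried the inducible recombinase and at least 1 floxed copy of Brg1. The recombinase sits in the Glast locus, whose gene is Slc1a3, and is therefore made in astrocytes and radial glia-like stem cells. Each sample was bulb tissue that mixes recombined cells and their offspring with many cells that never made the recombinase. The mice were 2.5 months old on a mixed background of C57BL/6 and CD1. The labels call the samples biological replicates and state no treatment, and no source used here gives the time at which recombination was induced.

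Brg1, encoded by Smarca4, is an ATPase that powers the BAF (SWI/SNF) complex, which slides and evicts nucleosomes. In the adult mouse brain, stem cells beside the lateral ventricle give rise to neuroblasts that migrate to the olfactory bulb, enter its core and mature into granule and periglomerular interneurons. On the way they carry polysialylated adhesion molecules, immature tubulins and receptors for guidance cues, and these are lost as the cells mature. A bulk sample of the bulb therefore reads both the number of such young neurons and the RNA each one holds, and fewer cells of a type and less RNA per cell cannot be told apart in any result given here.

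Values are log2 expression per probe set, and differences are cKO minus control on that scale. Array medians lay between 7.51 and 7.65, and the correlation between any pair of the 8 arrays between 0.98 and 0.995. Smarca4 read 11.00, 10.97 and 11.09 in the 3 cKO arrays and 11.01, 11.01, 10.95, 11.03 and 11.06 in the 5 control arrays, a difference of 0.00 (SE 0.06), and the probe set is not resolved to the deleted part. Slc1a3 was 8.85 in cKO replicate 3 and between 11.64 and 12.27 in the other 7 arrays. In the ventricular sample of cKO replicate 3 it was likewise low, at 8.16 against 11.16 to 11.79 in the other ventricular arrays. Xist, made only from the inactive X chromosome, was above 12 in cKO replicate 2 and control replicates 1 and 4 and below 6.2 in the others. In cKO replicate 1 Xist was 6.08 in the bulb and 12.40 in the ventricular sample of the same number. Markers of bulb neurons were bright in all 8 arrays, with Gad1 of granule neurons from 13.05 to 13.38, Calb2 and Th of periglomerular neurons from 12.51 to 12.82 and from 11.79 to 12.50, and Cdhr1 of mitral cells from 11.47 to 12.02. Omp, made by the sensory axons of the outer layer, ranged from 7.36 to 10.73 among the controls and from 8.54 to 9.95 in cKO, so samples of 1 group differed in this marker.

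After adjustment over all 19938 genes, 9 genes (0.0451%) fell in cKO bulbs and 0 (0%) rose, by limma's moderated test at an adjusted p under 0.05. All 9 lay above the median level of all genes, and 6 of the 9 belong to the list of migrating neuroblast genes. That list was written with this bulb comparison known, so the overlap is no independent evidence. The plot of difference against level shows the 9 genes in the lower right, apart from the cloud.

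**Figure D1:**
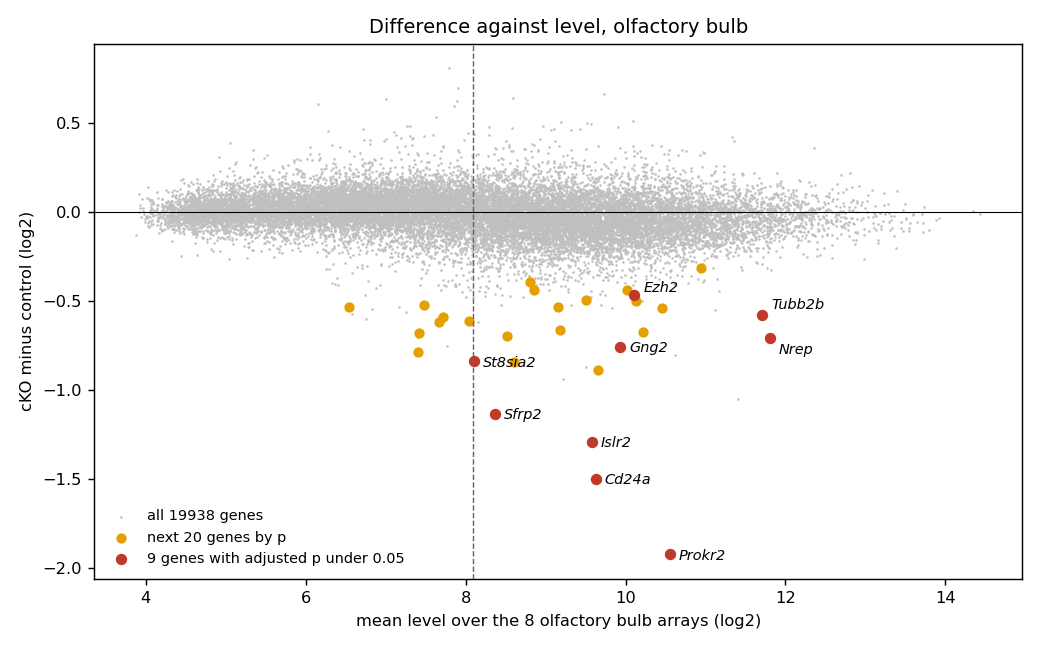
Difference between cKO and control (log2, vertical axis) against the mean level over the 8 olfactory bulb arrays (log2, horizontal axis) for 19938 genes. Red points are the 9 genes with adjusted p under 0.05, orange points the next 20 by p, and the dashed line is the median level of 8.09. All 29 coloured points lie below 0, and all 9 red points lie to the right of the dashed line.

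The largest fall was that of Prokr2, the G protein-coupled receptor for prokineticins, which neuroblasts need to reach the bulb. Prokr2 read 9.35, 9.69 and 9.02 in the cKO arrays and 11.36, 10.98, 11.16, 11.34 and 11.55 in the controls. Every cKO array lay far below the lowest control, and the mean was 3.79-fold lower (-1.92, SE 0.21, adjusted p = 0.000629). The ligand gene Prok2 went the other way without passing the test, at 7.91, 7.75 and 7.62 in cKO and 7.60, 7.39, 7.68, 7.62 and 7.42 in controls (0.22, SE 0.11, adjusted p = 1). Its groups overlapped in cKO replicate 3. Gng2, a gamma subunit of the G proteins that such receptors act through, was 9.47, 9.60 and 9.31 in cKO and 10.33, 10.19, 10.15, 10.20 and 10.20 in controls. The cKO arrays were all below the controls, and Gng2 fell by 0.76 (SE 0.10, adjusted p = 0.00525).

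Of the 9, Cd24a and St8sia2 act at the surface of the migrating neuroblast. Cd24a, a glycoprotein anchored on the neuroblast surface, read 9.06, 8.57 and 8.44 in cKO and 10.23, 9.87, 10.60, 9.86 and 10.38 in controls. Both groups were widely spread, yet they stayed apart, and Cd24a fell 2.83-fold (-1.50, SE 0.20, adjusted p = 0.00525). St8sia2, the enzyme that builds polysialic acid on the adhesion molecule NCAM in young neurons, was 7.59, 7.66 and 7.51 in cKO and 8.24, 8.26, 8.30, 8.66 and 8.65 in controls. Its 3 cKO arrays lay close together and all below the controls (difference -0.84, adjusted p = 0.00525). Its paralog St8sia4 was at -0.09 (SE 0.16) and its substrate Ncam1 at -0.03 (SE 0.07), and neither passed.

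Islr2, a leucine-rich repeat membrane protein of axon extension, had the smallest p of all genes. It read 8.90, 8.77 and 8.63 in cKO and 10.13, 10.06, 9.72, 10.06 and 10.32 in controls. The groups were well apart, and Islr2 fell 2.45-fold (-1.29, SE 0.11, adjusted p = 3.53e-05). Tubb2b, a beta-tubulin of immature neurons, was 11.56, 11.31 and 11.17 in cKO and 11.96, 11.89, 11.98, 11.84 and 11.95 in controls, and Nrep, a small protein of regenerating and developing neurons, was 11.40, 11.59 and 11.10 and 12.05, 11.96, 12.10, 12.08 and 12.16. In both genes the 5 controls lay close together and the cKO arrays were more scattered and lower. Tubb2b fell by 0.58 (SE 0.10, adjusted p = 0.0394) and Nrep by 0.71 (SE 0.12, adjusted p = 0.0378).

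The remaining pair act outside and inside the nucleus. Sfrp2, a secreted modulator of Wnt signalling, was 7.72, 7.84 and 7.41 in cKO and 8.14, 8.67, 8.85, 9.12 and 9.16 in controls. Control replicate 1 lay closer to the highest cKO array than to the other controls, and the difference was -1.13 (SE 0.19, adjusted p = 0.0378). Ezh2, the methyltransferase of polycomb repressive complex 2, was 9.86, 9.91 and 9.69 in cKO and 10.35, 10.14, 10.28, 10.31 and 10.35 in controls. Its fall of 0.47 (SE 0.07, adjusted p = 0.0334) was the smallest of the 9.

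These calls did not rest equally on the arrays and settings. With the bulb arrays fitted alone, only Islr2, Prokr2 and Gng2 passed. With cyclic loess, a rescaling between arrays, Ezh2, Nrep, Sfrp2 and Tubb2b did not pass. With the replicate number as a block, Islr2, Prokr2, Gng2, Cd24a and St8sia2 passed, and Ezh2, Nrep, Sfrp2 and Tubb2b had adjusted p of 0.122, 0.128, 0.173 and 0.0642. Without cKO replicate 3, the array in which Slc1a3 was 8.85, only Islr2 and Prokr2 passed. Whether the low Slc1a3 and this loss of calls are linked was not tested. Without control replicate 4 or control replicate 5 the count was 5 each time, the genes that also passed with the block. No gene rose in any of these fits.

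Promoters of the called genes were read from RefSeq (GRCm38.p6), as windows of 300 bases that span a transcript start, and 6 of the 9 genes had at least 1. Windows of Cd24a, Nrep and Tubb2b were not analysed here. They were searched on both strands for letters tied to factors of the neurogenic network that the study named, AACAAAG for Sox proteins, ATGCAAAT for POU proteins and TTGGC for nuclear factor I, and for the E-box CAGCTG of proneural proteins. The 3 windows shown hold at least 1 match each, in capitals on either strand, Prokr2 at chr2:132385398-132385697 (minus strand), Ezh2 at chr6:47594981-47595280 (minus strand) and Sfrp2 at chr3:83766071-83766370 (plus strand), each printed 5′ to 3′ on its own strand.
Prokr2: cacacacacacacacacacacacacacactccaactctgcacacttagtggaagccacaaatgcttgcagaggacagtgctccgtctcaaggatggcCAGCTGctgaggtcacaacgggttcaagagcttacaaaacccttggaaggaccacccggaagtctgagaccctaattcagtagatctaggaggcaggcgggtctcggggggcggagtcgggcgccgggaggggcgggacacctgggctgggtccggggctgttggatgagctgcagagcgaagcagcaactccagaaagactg
Ezh2: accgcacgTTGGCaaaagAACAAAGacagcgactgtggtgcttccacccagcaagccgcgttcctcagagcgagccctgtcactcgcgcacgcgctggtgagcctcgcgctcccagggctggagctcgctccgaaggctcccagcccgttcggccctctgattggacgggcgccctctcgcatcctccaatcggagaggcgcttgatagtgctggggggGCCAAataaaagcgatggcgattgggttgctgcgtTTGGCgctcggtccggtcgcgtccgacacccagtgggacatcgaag
Sfrp2: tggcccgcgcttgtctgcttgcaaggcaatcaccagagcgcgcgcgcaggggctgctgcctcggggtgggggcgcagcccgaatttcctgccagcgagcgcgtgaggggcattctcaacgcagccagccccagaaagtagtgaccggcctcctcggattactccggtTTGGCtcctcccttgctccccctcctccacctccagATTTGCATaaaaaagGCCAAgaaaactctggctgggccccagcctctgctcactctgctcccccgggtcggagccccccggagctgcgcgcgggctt
The capitals mark 1 E-box in Prokr2, 1 Sox and 3 nuclear factor I matches in Ezh2, and 1 POU and 2 nuclear factor I matches in Sfrp2. Over the 6 genes, 1 held the Sox letters, 1 the POU letters, 2 the nuclear factor I letters and 2 the E-box (Gng2 being the second). Among 15614 measured genes with a window, 5.76% held the Sox letters, 1.90% the POU letters, 52.7% the nuclear factor I letters and 18.4% the E-box. A match describes these letters and shows no binding, and the 3 windows of Islr2 hold none of the 4.

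Below the 9, no gene passed, and the genes that follow are described by values only. Of 19938 genes, 700 had an unadjusted p under 0.05 where 997 would be reached by that threshold alone, 527 of them lower (2.64%) and 173 higher (0.868%). The list by p was one-sided at its head, since the first gene with a higher estimate, Mrgprh, ranked 41st. The 20 genes after the called ones all had lower estimates, from -0.89 to -0.31, with adjusted p from 0.0853 to 0.597. In 19 of the 20 every cKO array lay below every control, as in 314 of all genes (1.57%), and genes ranked by this contrast had to tend that way. Only 7 of the 20 were in any of the gene lists used here.

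**Figure D2:**
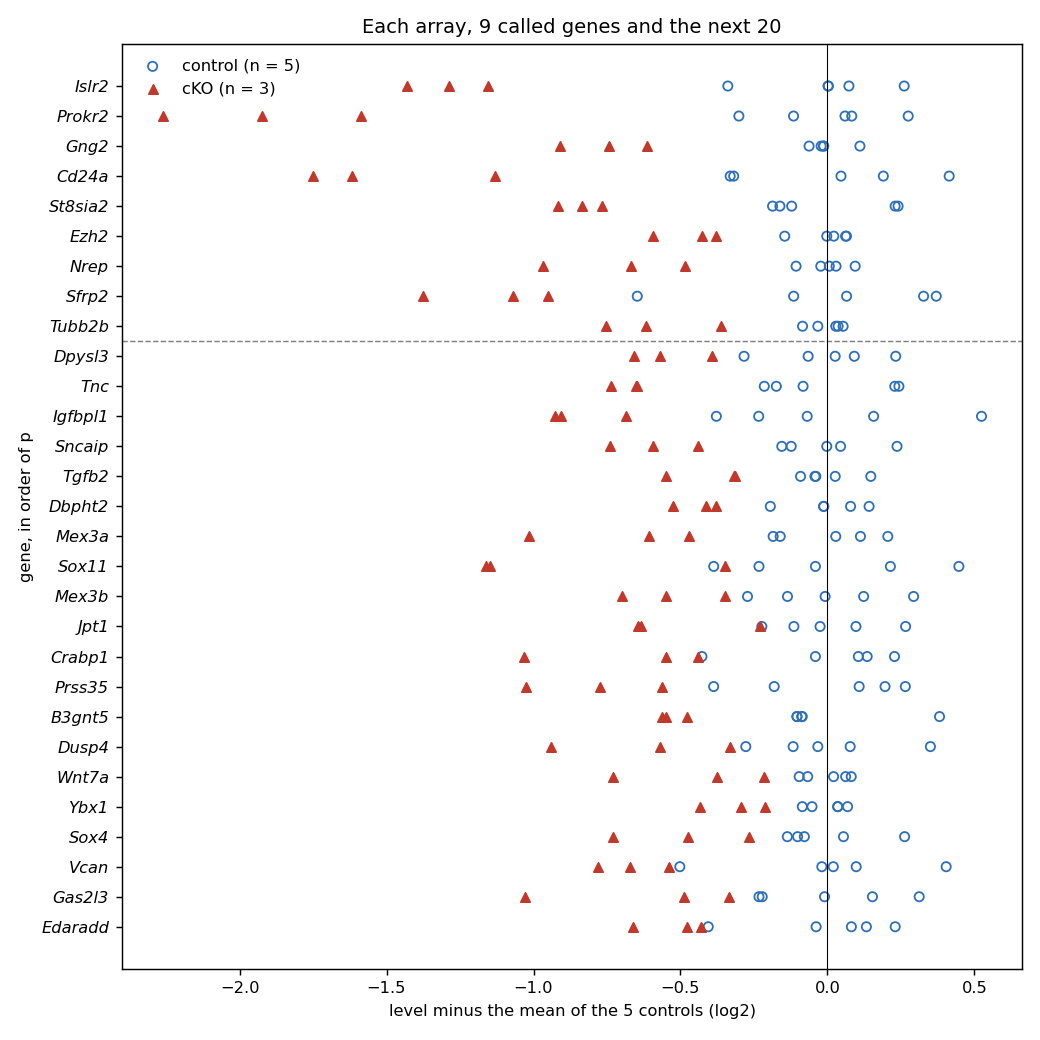
Level of each olfactory bulb array minus the mean of the 5 controls (log2, horizontal axis) for the 9 called genes (above the dashed line) and the next 20 in order of p (vertical axis). Red triangles are the 3 cKO arrays and blue circles the 5 controls. Sox11 is the gene of the lower block whose groups overlap, through cKO replicate 2 at 9.64 and control replicate 3 at 9.60.

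Dpysl3 had the smallest p of the 20, and Sox11 and Sox4 were also among them. Dpysl3, a collapsin response mediator that acts on growth cone tubulin, read 10.09 and 10.26 in cKO replicates 1 and 2, 10 in cKO replicate 3, and 10.59, 10.75, 10.37, 10.68 and 10.89 in controls. The groups did not overlap, and the difference of -0.54 (SE 0.10) had an adjusted p of 0.0853. Sox11 and Sox4, both SoxC transcription factors of neuronal differentiation, were at -0.89 (SE 0.19) and -0.49 (SE 0.12). Sox11 was 8.82, 9.64 and 8.84 in cKO and 9.75, 9.94, 9.60, 10.20 and 10.43 in controls, so cKO replicate 2 sat among the controls and the other 2 cKO arrays well below. Sox4 was 9.21, 9.42 and 8.96 in cKO and 9.59, 9.61, 9.55, 9.74 and 9.95 in controls, with no overlap. Without cKO replicate 2 Sox11 passed the adjusted test, and without control replicate 3 Dpysl3 did.

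Several genes of the second tier act in the space around the cell. Tnc, the matrix protein tenascin C that surrounds the migratory route, read 6.93, 7.02 and 7.02 in cKO and 7.49, 7.91, 7.45, 7.90 and 7.58 in controls. The cKO arrays lay close together and all below the lowest control, with an adjusted p of 0.122. Vcan, the proteoglycan versican, was 8.65, 8.89 and 8.76 in cKO and 9.41, 9.45, 8.93, 9.53 and 9.83 in controls. Control replicate 3 nearly met the cKO arrays, and without it Vcan passed. Igfbpl1, an insulin-like growth factor binding protein relative found in neuroblasts, was 7.99, 8.24 and 8.01 in cKO and 8.54, 8.85, 8.69, 9.08 and 9.45 in controls (-0.84, adjusted p = 0.13), with no overlap, and it passed without control replicate 1. Among secreted ligands, Tgfb2 of the transforming growth factor beta family was at -0.39 (SE 0.08) and Wnt7a at -0.44 (SE 0.10). The protease relative Prss35 was at -0.79 (SE 0.17) and the glycosphingolipid enzyme B3gnt5 at -0.53 (SE 0.12).

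The other genes of the second tier have varied roles. Mex3a and Mex3b, RNA-binding proteins of 1 family, both had lower estimates, with Mex3a at 8.31, 8.17 and 7.76 against 8.81, 8.62, 8.59, 8.89 and 8.98 and Mex3b at 8.80, 9.002 and 8.65 against 9.34, 9.21, 9.08, 9.47 and 9.64. In neither gene did the groups overlap, with differences of -0.70 (SE 0.15) and -0.53 (SE 0.11). Ybx1, a cold shock domain protein that binds RNA, differed by -0.31 (SE 0.07), and Crabp1, which holds retinoic acid in the cytoplasm, by -0.67 (SE 0.15). Dusp4, a phosphatase of MAP kinases, was at -0.61 (SE 0.14), Sncaip, a partner of alpha-synuclein, at -0.59 (SE 0.12), and Edaradd, an adaptor of the ectodysplasin receptor, at -0.52 (SE 0.13). Jpt1, Gas2l3 and Dbpht2 completed the 20 at -0.50, -0.62 and -0.44.

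The 2 tiers were also read in the ventricular zone samples of the same series, where the neuroblasts are born. Those arrays do not enter the bulb differences, but they entered the variance estimates of the fit and so took part in the calls and the ranking. All 9 called genes had estimates below 0 there, but small, with a median of -0.18 against -0.84 in the bulb. At an unadjusted p under 0.05 in the ventricular zone, which 1.01% of all genes reached with a lower estimate, stood 2 of the 9 (Ezh2 at -0.19 and Gng2 at -0.21) and 2 of the next 20 (B3gnt5 at -0.41 and Dusp4 at -0.30). Of the next 20, 17 had estimates below 0 there, with a median of -0.12 against -0.57 in the bulb. Both tiers were picked by their bulb values, which alone tends to make the bulb medians the larger ones. These medians are therefore no evidence of a difference between the tissues. The share of all genes with estimates below 0 in the ventricular zone is not given here. Tested directly, the difference between the tissues' effects passed for 1 gene of 19938 (0.00502%), Islr2, at -1.21 (SE 0.15, adjusted p = 0.0117), and for none of the other 28. For Prokr2 that difference was -1.56 with an adjusted p of 0.46. The labels do not state whether bulb and ventricular samples of 1 number come from 1 animal. For cKO replicate 1 they appear not to, since Xist was 6.08 in the bulb and 12.40 in the ventricular sample. In every other pair of samples of the same group and number, Xist was high in both tissues or low in both. Whether those pairs share an animal was not tested. The test of the difference between tissues fitted groups of tissue and genotype, with no term for the animal.

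No gene rose by the adjusted test, and the smallest adjusted p among genes with higher estimates was 1.00. Among bright genes with higher estimates, the smallest p belonged to Ppip5k1, a kinase of inositol pyrophosphates, at 10.40, 10.48 and 10.50 in cKO and 10.28, 10.27, 10.19, 10.25 and 10.23 in controls. Every cKO array was above every control, as in 191 of all genes (0.958%), and the difference was small (0.22, SE 0.06). Metabolic and circadian genes followed. Ivd, an enzyme of leucine breakdown, was at 0.31 (SE 0.10), Sumf1, which activates sulfatases, at 0.23 (SE 0.07), and the clock gene Per3 at 0.28 (SE 0.09). Membrane and neurite genes among the same 10 were the calcium channel Cacna1d (0.25), the ephrin receptor Epha10 (0.35), Nav2 (0.26) and the chondroitin sulfate synthase Chsy3 (0.30). The ciliary dynein Dnah11 (0.51) and Iqcc (0.27) completed them. The groups overlapped in Dnah11, Iqcc, Cacna1d and Chsy3. Among dim genes the 5 of smallest p with higher estimates were Mrgprh (0.27), Gpr141b (0.30), Gm4988 (0.29), Hpdl (0.21) and 6330407A03Rik (0.45). The 3 largest higher estimates belonged to Olfr111 (0.81), Phxr4 (0.69) and Mir138-2 (0.67), whose SEs were 0.47, 0.39 and 0.38. In those 3 the groups overlapped.

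Among cell types, the migrating neuroblast list held most of the called genes. Of its 28 members 6 fell (Islr2, Prokr2, Cd24a, St8sia2, Nrep and Tubb2b), 0 rose, 16 had an unadjusted p under 0.05 with a lower estimate, and 26 had estimates below 0. Over all genes 0.0451% fell and 2.64% had an unadjusted p under 0.05 with a lower estimate, and among genes above the median level, which include 27 of the 28 members, the latter share was 4.22%. Its median difference was -0.29, where the median of all genes was -0.01, and without the 6 called genes it was -0.15. The mean over the list was 9.99, 10.05 and 9.86 in the cKO arrays and 10.38, 10.35, 10.31, 10.40 and 10.52 in the controls, so the groups did not overlap. The list was written with this bulb comparison known, so its direction is no independent evidence. Dcx, the microtubule protein that marks neuroblasts, read 11.61, 11.59 and 11.63 in cKO and 11.95, 11.87, 11.80, 11.93 and 12.12 in controls, apart but by little (-0.32, SE 0.09, adjusted p = 1). Dpysl5, another collapsin response mediator, was at -0.36 (SE 0.10) and the Slit receptor Robo2 at -0.25 (SE 0.11). Celsr3 (0.27) and Sema3c (0.05) were the 2 members with estimates above 0. The list's median ran from -0.33 without cKO replicate 2 to -0.21 without cKO replicate 3 over all alternatives tried.

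Lists of mature bulb neurons and of interneuron fate factors held 0 called genes. The granule neuron list had a median of -0.05 over 14 members, with 0 called and 1 (Camk4) at an unadjusted p under 0.05 and lower. Camk4, a calmodulin-dependent kinase, was 9.28, 9.71 and 9.36 in cKO and 9.69, 9.83, 9.68, 10.20 and 10.19 in controls, and cKO replicate 2 lay above the 2 lowest controls. The periglomerular list had a median of 0.03 over 14 members. Its calbindin gene Calb1 was 7.90, 7.88 and 7.61 in cKO and 8.52, 8.86, 8.26, 7.76 and 7.96 in controls (-0.48, SE 0.19), with control replicate 4 among the cKO arrays. The mitral and tufted list, glutamatergic neurons born in the embryo, had a median of 0.07 over 19 members, 13 of them above 0, and the sign of that median turned in 2 of 18 settings. The interneuron fate factors, among them the Dlx, Sp and Meis genes, had a median of -0.04 over 21 members with 0 called and 1 (Sall3, 0.15) at an unadjusted p under 0.05, Dlx1 at -0.08 and Dlx2 at -0.20. After cyclic loess that median was 0.01, so the sign of this list was not stable to the scaling.

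The list of 4 factors that the study named as a neurogenic network was chosen on these samples and gives no independent evidence of its direction. None of the 4 passed and all 4 had estimates below 0. Nfib, a nuclear factor I protein, was 10.84, 10.71 and 10.76 in cKO and 11.13, 11.06, 10.97, 11.09 and 11.11 in controls, with every cKO array lower (-0.31, SE 0.08, adjusted p = 0.84), and it passed when the probe sets of a gene were averaged. Pou3f4 was 10.23, 10.19 and 9.64 in cKO and 10.27, 10.31, 10.44, 10.46 and 10.51 in controls, and cKO replicate 3 lay furthest below them (difference -0.38, SE 0.12). Pax6 overlapped throughout, at 10.05, 9.80 and 9.92 against 10.04, 9.83, 10.02, 9.88 and 9.92.

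Among glia and other cells, the microglia and macrophage list had the lowest median after neuroblasts, -0.14 over 23 members, with 20 below 0 and 0 called. Of the 23, 15 lie above the median level, where 62.7% of all genes were below 0. An unadjusted p under 0.05 with a lower estimate was held by 21.7% of the list, against 4.22% of genes above that level and 2.64% of all genes. Such members numbered 5, and 3 after cyclic loess. Leaving out 1 array gave 1 to 6. Olfml3, Trem2, C1qb, Ctss and P2ry12 had an unadjusted p under 0.05, all lower, P2ry12 being outside the naming rule's first 4 and named as a defining marker. P2ry12, a purine receptor of resting microglia, was 8.15, 8.19 and 8.08 in cKO and 8.26, 8.24, 8.33, 8.26 and 8.24 in controls, apart but only by -0.13 (SE 0.06). The list's mean was 8.13, 8.36 and 8.09 in cKO and 8.33, 8.39, 8.22, 8.39 and 8.45 in controls, so cKO replicate 2 lay among the controls. Medians of the astrocyte (-0.02, 20 members), oligodendrocyte progenitor (-0.04, 17), myelinating oligodendrocyte (-0.03, 21), endothelial (-0.04, 16) and stem cell (-0.05, 21) lists were all within 0.05 of 0, with 0 called. Leaving out 1 array moved them, the endothelial median to -0.15 without cKO replicate 1 and the myelinating one to -0.12 without cKO replicate 2 and 0.072 without cKO replicate 1. The progenitor median was 0.015 without cKO replicate 3, and the astrocyte median 0.038 without control replicate 2. Within the progenitor list Vcan was lower while Lhfpl3 was at 0.35 (SE 0.13), so its members did not share a direction.

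The mural cell, olfactory ensheathing glia and meningeal fibroblast lists had medians above 0. Of 13 mural cell genes, 12 had estimates above 0, with a median of 0.09 and 0 called. Only 4 of the 13 lie above the median level, and 41.4% of all dim genes had estimates below 0. Acta2, smooth muscle actin, was 8.21, 7.92 and 7.69 in cKO and 7.56, 7.71, 7.70, 7.38 and 7.53 in controls (0.37, SE 0.16), with cKO replicate 3 among the controls. The olfactory ensheathing glia list had a median of 0.13 over 9 members, but -0.0049 with the replicate block. The meningeal fibroblast list had a median of 0.05 over 14 members, which became -0.24 without cKO replicate 1 and 0.20 without cKO replicate 2. Its mean was 8.28, 7.44 and 7.50 in cKO and between 7.28 and 8.11 in controls, so samples of each group differed widely in these markers. The olfactory sensory list (median -0.04, 12 members), the ependymal list (0.00, 19), the striatal list (-0.00, 11) and the cortical list (-0.01, 14), which mark neighbouring tissue, were near 0. Their part in the neuroblast result was not tested.

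**Figure D3:**
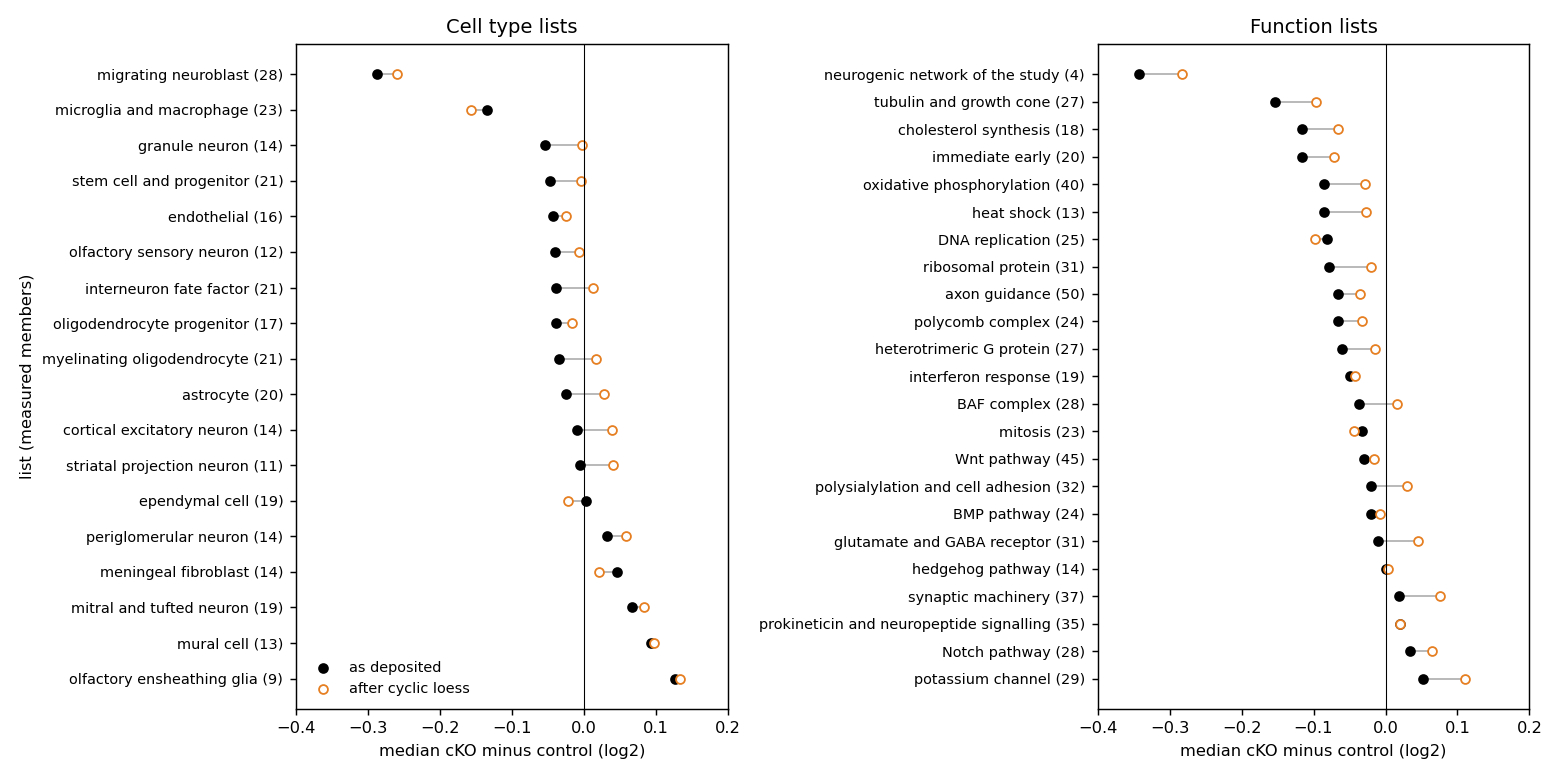
Median difference between cKO and control (log2, horizontal axis) of each gene list with at least 3 measured members (number in brackets), cell types on the left and functions on the right. Filled points are the deposited scale, open points the values after cyclic loess. The migrating neuroblast list (-0.29) and the tubulin and growth cone list (-0.15) lie on the left on both scales, and the ribosomal and oxidative phosphorylation lists move from -0.08 and -0.09 to -0.02 and -0.03.

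Among functions, genes of tubulin and the growth cone had mostly lower estimates. Of 27 members 1 fell (Tubb2b), 11 had an unadjusted p under 0.05 with a lower estimate and 0 with a higher one, and 22 were below 0. All 27 lie above the median level, and of the genes there 4.22% had an unadjusted p under 0.05 with a lower estimate and 62.7% were below 0. The median was -0.15. After cyclic loess it was -0.10, with 18 members below 0 and 8 lower at an unadjusted p under 0.05. Leaving out 1 array gave 4 to 10 members lower at that p. Mean levels of the list were 11.22, 11.29 and 11.17 in cKO and 11.36, 11.42, 11.35, 11.39 and 11.47 in controls, without overlap. The list shares 9 members with the neuroblast list, so the 2 are not separate observations.

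Genes of DNA replication had a median of -0.08 over 25 members, 0 of them called and 5 at an unadjusted p under 0.05, all lower. The 5 make 20% of the list, against 2.64% of all genes. Pcna, the sliding clamp of DNA polymerase, read 10.71, 11.22 and 10.75 in cKO and 11.04, 11.33, 11.52, 11.36 and 11.44 in controls, and cKO replicate 2 lay among the controls (-0.44, SE 0.12, adjusted p = 0.918). The helicase subunit Mcm7 was 8.14, 8.31 and 8.16 in cKO and 8.39, 8.48, 8.72, 8.57 and 8.53 in controls, without overlap (-0.33, SE 0.09). Rpa2 (-0.18), Mcm5 (-0.19) and Mcm4 (-0.29, named after its value was seen) were the other 3. Mitosis genes, by contrast, had 0 of 23 members at an unadjusted p under 0.05 and a median of -0.03, and all 23 were dim, so the bulb arrays read them near the low end of the scale. The proliferation marker Mki67 was at 0.04 (SE 0.10).

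Chromatin genes outside Ezh2 had small differences. Of 24 polycomb genes 1 fell (Ezh2), and Rnf2 (-0.26), Rbbp4 (-0.23) and Pcgf3 (-0.20) had an unadjusted p under 0.05, with a list median of -0.07. At that p, lower genes made 16.7% of the list with Ezh2, and 4.22% of all genes above the median level. Of 28 genes of the BAF complex, 0 were called, and Actl6a, the actin-related subunit of progenitor BAF complexes, was at -0.24 (SE 0.11). Actl6a was 9.90, 9.50 and 9.30 in cKO and 9.87, 9.74, 10.01, 9.63 and 9.81 in controls, and cKO replicate 1 lay within the control range. The BAF median of -0.04 became 0.02 after cyclic loess.

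Of the signalling and adhesion lists, polysialylation and adhesion held 2 called genes, axon guidance, Wnt, G protein and neuropeptide lists 1 each, and Notch, hedgehog and BMP lists 0. Over all genes 0.0451% fell, and an unadjusted p under 0.05 was reached by 2.64% with a lower and 0.868% with a higher estimate. Among genes above the median level the lower share was 4.22%. Axon guidance had a median of -0.07 over 50 members, with Islr2 called, 6 at an unadjusted p under 0.05 and lower, and 1 higher. The ligand Efnb2 was at -0.33 (SE 0.11), and the netrin receptor Dcc was the higher one, at 9.66, 9.23 and 9.65 in cKO and 9.31, 9.12, 9.33, 9.24 and 9.15 in controls (0.28, SE 0.11), with cKO replicate 2 among the controls. The Wnt pathway had a median of -0.03 over 45 members with Sfrp2 called, and polysialylation and adhesion -0.02 over 32 with Cd24a and St8sia2 called. With the called genes included, 2 of the 45 and 3 of the 32 were lower at an unadjusted p under 0.05. The G protein list had -0.06 over 27 with Gng2 called and Gnaq at -0.22 (SE 0.09), and the neuropeptide list 0.02 over 35 with Prokr2 called. In that list the tachykinin gene Tac1 was at -0.75 (SE 0.30) and the bombesin-type receptor Nmbr at -0.62 (SE 0.21), both uneven among controls. Notch (0.03, 28 members), hedgehog (0.00, 14) and BMP (-0.02, 24) genes had 0 called and 0 at an unadjusted p under 0.05.

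Among genes of mature synapses and excitability, 37 synaptic genes had a median of 0.02 and 29 potassium channels 0.05. The 31 glutamate and GABA receptor genes had a median of -0.01, and 0 genes were called in any of these lists. Pclo, a scaffold of the presynaptic active zone, was 11.50, 11.33 and 11.36 in cKO and 11.16, 11.23, 10.98, 11.05 and 11.28 in controls, without overlap (0.26, SE 0.10). Kcna4, a voltage-gated potassium channel, was at 0.25 (SE 0.10). After cyclic loess the synaptic, potassium channel and receptor medians were 0.08, 0.11 and 0.05. Without cKO replicate 2 they were -0.02, 0.0026 and -0.05. Ribosomal protein genes had a median of -0.08 over 31 members and oxidative phosphorylation -0.09 over 40, 34 of which were below 0. All 40 lie above the median level, where 62.7% of all genes were below 0. The oxidative phosphorylation median ran from -0.16 without cKO replicate 2 to -0.02 without cKO replicate 3. Cholesterol synthesis had a median of -0.12 over 18 members and immediate early genes -0.12 over 20, the latter close to 0 with the replicate block. Without cKO replicate 3 the cholesterol median was -0.011 and the immediate early median 0.064, and the latter was -0.26 without control replicate 1. These lists consist almost wholly of bright genes.

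Bright and dim genes differed in direction on the deposited scale. Genes were divided at the median of their mean level over the 8 bulb arrays, 8.09, a ranking that mixes abundance with how well each probe set responds. Among the 9969 bright genes, 421 had an unadjusted p under 0.05 with a lower estimate and 71 with a higher one, so that 85.6% were lower. Among the 9969 dim genes the counts were 106 and 102, or 51.0% lower. The median difference was -0.04 in bright and 0.02 in dim genes, and 62.7% of bright against 41.4% of dim genes had estimates below 0. In 5 equal classes of level, from the dimmest (class 1) to the brightest (class 5), the lower genes numbered 17, 45, 123, 177 and 165 and the higher genes 36, 41, 40, 28 and 28. The excess of lower over higher genes thus lay in classes 3 to 5.

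That contrast varied with the scaling and with the arrays included, and its cause was not tested. In class 5 the median of cKO replicate 3 was 0.10 below the mean of the 8 arrays, and in class 2 it was 0.05 above. Control replicate 5 did the reverse, 0.06 above in class 5 and 0.09 below in class 2. After cyclic loess, which removes such curves between arrays and assumes that most genes of each level do not change, 248 bright genes were lower and 210 higher (54.1% lower), and 124 dim genes were lower and 109 higher (53.2%). Over all genes 53.8% were then lower, where the deposited scale gave 75.3%. Without cKO replicate 3 the bright counts were 105 and 34 (75.5% lower) and the bright median -0.01, with 63.1% lower among dim genes. Without control replicate 5 the bright counts were 272 and 82 (76.8% lower) with a median of -0.03, and 57.6% were lower among dim genes. The median difference of bright genes was 0.0073 after cyclic loess, with 47.0% below 0, and -0.027 after centring on array medians, with 59.2% below 0. The 9 called genes kept estimates below 0 in each of the 18 settings that gave gene estimates. Chosen for low estimates on these same arrays, they had to tend that way. The number of genes that passed was 2 without cKO replicate 3.

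**Figure D4:**
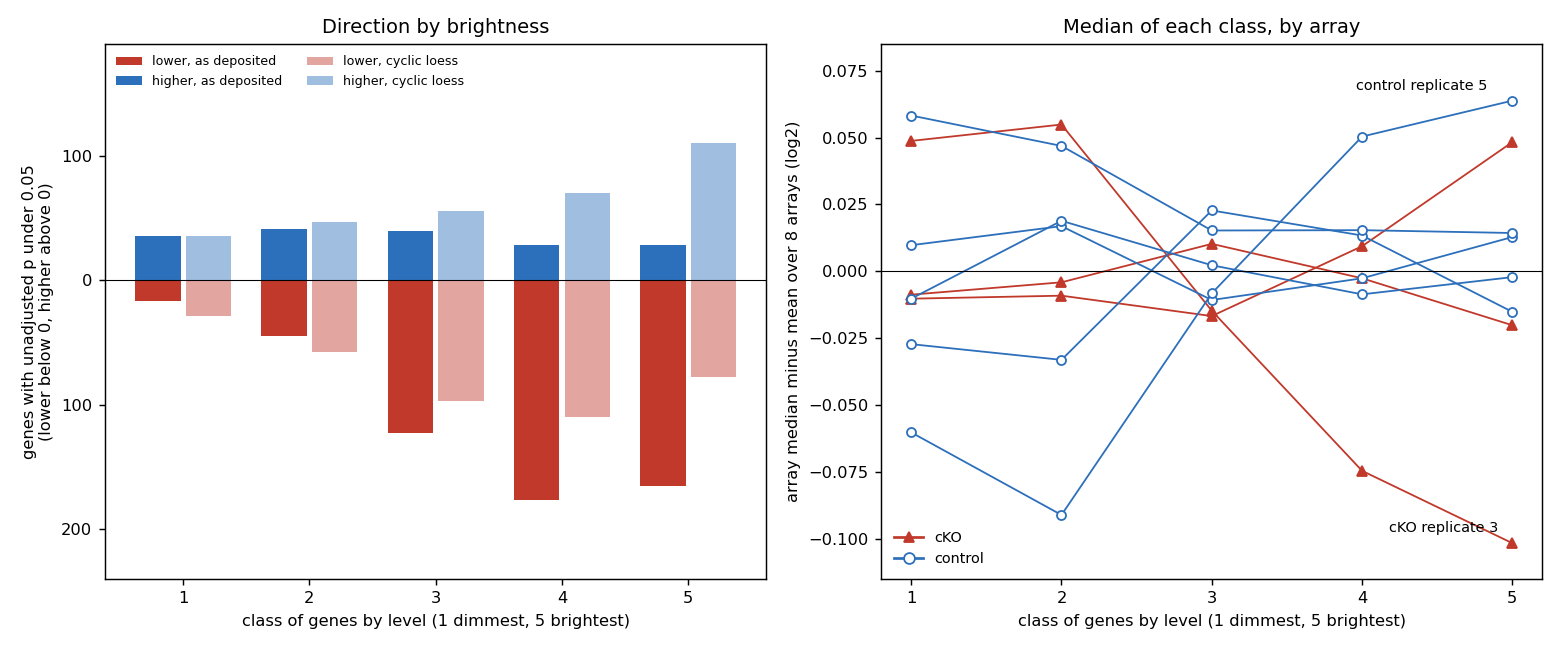
Left, number of genes with an unadjusted p under 0.05 in each of 5 equal classes of level, lower genes drawn downward and higher genes upward, on the deposited scale (dark) and after cyclic loess (pale). Right, median level of each array in each class minus the mean over the 8 arrays (log2), with cKO arrays as red triangles and controls as blue circles. In class 5, the brightest, 165 genes were lower and 28 higher as deposited, against 78 and 110 after cyclic loess, and cKO replicate 3 lies at -0.10 there.

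The 9 called genes spread from a level of 8.11 (St8sia2) to 11.80 (Nrep), with 2 in class 3, 2 in class 4 and 5 in class 5, and dim genes held 0 calls. The median residual SD was 0.13 in dim and 0.15 in bright genes, in the fit of bulb and ventricular arrays together. The median size of the difference, without its sign, was also smaller in dim genes, at 0.057 against 0.080 in bright genes. Why dim genes held 0 calls was not tested. The dim genes of smallest p with lower estimates were Tnc, Sncaip, Prss35, B3gnt5 and Dusp4, all among the 20 genes of the second tier and between -0.79 and -0.53. The files used here hold no background level per probe set, so whether a dim gene was above background is not given. Families that are mostly silent in brain had medians near 0, 0.02 over 1027 olfactory receptor genes and 0.0045 over 167 vomeronasal receptor genes. MicroRNA precursors, 300 genes of which 75% had estimates above 0, had a median of 0.07, and 0.07 after cyclic loess. Among all dim genes 41.4% had estimates below 0, against 25% of these precursors, of which 53 were bright. Their mean level was 6.54, 6.28 and 6.65 in cKO and 6.55, 6.30, 6.46, 6.33 and 6.30 in controls, so the groups overlapped, and without cKO replicate 3 the median was 0.02.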

How the data were processed

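Total RNA of 16 samples was measured on one-colour Affymetrix arrays, and 8 of them, from the olfactory bulb, are compared here. The deposited values are log2 expression per probe set, made by the authors with RMA in Affymetrix Expression Console 1.2, per the submitters' processing notes. No source used here names the genome build. Probe sets with 1 gene symbol in the platform annotation were kept (21789 of 35556; 1621 had several and 12146 none), 21698 were found in a RefSeq table (GRCm38.p6), 0 symbols changed, and the brightest probe set stood for a gene. Symbols and probe design can be old.

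All 16 arrays were fitted in 4 groups of tissue and genotype by limma's lmFit and eBayes (limma 3.58.1, R 4.3.3, two-sided tests, 12 residual degrees of freedom), with the contrast bulb cKO minus bulb control and p-values adjusted by Benjamini and Hochberg over 19938 genes. Errors are SEs of that fit. On simulated data for this comparison over 19938 genes the fit called 60 of 100 genes seeded at 0.5, 96 of 100 seeded at 1, and 5 false ones. The simulated noise was independent between genes and between arrays, whereas deviations of the real arrays correlate. The adjusted threshold also depends on how many genes were seeded, so these shares need not hold for the real comparison. The number of arrays limits the precision.

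The members and the 43 gene lists, of which 1 holds sex-linked genes, were chosen with earlier results of these data known. Lists are described by counts and medians, with no test. Of the erythrocyte list 1 gene, Alas2 (0.13), was measured, and the interferon (median -0.05), heat shock (-0.09) and receptor (-0.01) lists and the sex-linked list (0.40) had 0 called. Named genes were the called ones, the next 20 by p, the 10 bright and 5 dim genes of smallest p in each direction, up to 4 members of a list by p and its defining markers, Smarca4, Slc1a3 and sex-linked genes, and the 3 largest estimates each way. Only a part of them is printed.

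The same replicate number was checked for pairing: after group means were removed, cKO and control bulb arrays of 1 number correlated over genes at 0.43, 0.33 and 0.32. All 3 were over 0.1, so the number was treated as a pairing and fitted as a block, although cKO replicate 2 correlated more with control replicate 4 (0.48) and the labels do not say what a number shares. Alternatives were other scalings, covariates, filters and thresholds, and leaving out each of the 8 arrays.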

Additional observations from a re-analysis of the deposited data

Results flagged for a closer look

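Control arrays were searched for single samples far from the other 4 by Dixon's ratio, in 97 genes of the text and in the 43 lists. Chance alone flags about 1 in 20 groups, and 6 genes and 1 list were found. B3gnt5 was 7.12 in control replicate 5 against 6.63 to 6.65 in the other controls. Gng2 was 10.33 in control replicate 1 against 10.15 to 10.20. P2ry12 was 8.33 in control replicate 3 against 8.24 to 8.26, and Iqcc 8.17 there against 7.92 to 7.99. Epha10 was 8.55 in control replicate 2 against 8.79 to 8.87. Slc1a3 was 12.27 in control replicate 2 against 11.64 to 11.72, and the mean of the astrocyte list was 10.97 in the same array against 10.64 to 10.73. That astrocyte gene and list stood high together in 1 array, and the list's median difference of -0.02 became 0.04 without it. Between tissues, the effect on Islr2 in the bulb minus that in the ventricular zone was -1.21 by the test of the difference.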

How the results depend on the processing

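Counts were recomputed under 20 alternatives, and genes and lists under 18 of them, 8 of which left out an array. There 1630 gene values kept their direction and side of the threshold, 47 lost it and 17 gained it. Another 32, of 11 genes of which 0 were called, changed sign, while 32 list medians moved by more than the spread between replicates and 740 did not. Of the sign changes, with cyclic loess Cdhr1 was 0.025, Ncam1 0.024 and Pax6 0.023. With array weights Pax6 was 0.0299 and Smarca4 -0.00209. With the replicate block Calb2 was -0.019, St8sia4 0.016, Xist 0.19, and with a sex score as covariate Xist was 0.18. Leaving out 1 array, which turned the sign of these genes at least once, gave -0.014 to 0.077 for Calb2, -0.16 to 0.11 for Cdhr1, -0.028 to 0.10 for Mki67, -0.0696 to 0.0199 for Ncam1, -0.64 to 0.26 for Omp, -0.078 to 0.046 for Pax6, -0.16 to 0.23 for Sema3c, -0.032 to 0.027 for Smarca4, -0.26 to 0.11 for St8sia4, -0.18 to 0.0020 for Th and -2.49 to 0.78 for Xist. The count of genes that rose was 0 in every setting. The 9 genes that fell became 3 in the bulb arrays alone, 5 with cyclic loess, 28 with a covariate for the main component left within groups, and 5 with the replicate number as a block or pairing; leaving out 1 array gave 2 to 9. Cyclic loess also gave 319 higher genes at an unadjusted p under 0.05, 53.8% lower among all and 54.1% among bright genes. The bulb arrays alone gave 69.5% and 81.6%, and the block 68.3% and 72.2%. Bright genes alone gave 66 higher genes and 85.6% lower. Centring gave 61.4%, 74.1% among bright and 35.7% among dim genes. Array weights gave 361 higher genes, 68.1% and 77.3%. That component gave 1425 lower and 553 higher genes and 80.0% among bright ones. All probe sets gave 474 higher ones, 59.7%, 77.5% among bright and 32.0% among dim. At an unadjusted p under 0.01, 122 were lower and 24 higher, 83.6%, and 72.2% among dim genes. Leaving out 1 array gave 170 (without cKO replicate 3) to 1394 (without cKO replicate 2) lower and 72 to 599 higher genes, 69.9% to 76.1% lower, 75.5% to 86.5% among bright and 35.2% to 63.1% among dim genes. The cause of these shifts was not tested. With 3 against 5 arrays, genes below the threshold are not shown to be the same in both groups.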

Other observations

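Genes beyond the 9 passed in single fits. With a covariate for the main component left within groups, 19 genes passed beside the 9, among them Dpysl3, Tnc, Igfbpl1, Sncaip, Sox11, Jpt1, Prss35, Dusp4, Vcan and Camk4, all lower, and without cKO replicate 2 the proline synthesis gene Aldh18a1 did.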
